A study of Mus musculus with 7 samples.

Results

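The expression of 8 genes of Schwann cells and peripheral nerve, Sox10, Mbp, Pmp22, Prx, Ngfr, Cdh19, S100b and Gfap, was compared between NM1 KO tumors and KO + NM1 tumors. The genes were taken by their GENCODE M21 symbols from the 46603 genes counted in every library, and each of the 8 symbols matched 1 Ensembl identifier. The study asked how nuclear myosin 1 (NM1), a motor protein of the nucleus encoded by Myo1c, shapes the transcription of cells and of the tumors they form. The 7 RNA-seq libraries were 3 pieces of tumor from NM1 KO cells and 4 pieces of tumor from KO + NM1 cells.

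NM1 KO cells are mouse embryonic fibroblasts (MEFs) of an established line whose NM1 was removed by CRISPR/Cas9 editing. KO + NM1 cells are the same NM1 KO cells after transduction with a lentivirus that carries NM1 with HA and V5 tags, followed by neomycin selection of single clones. Both groups therefore lack the endogenous protein, and tumors of wild-type cells were not analysed here. The hosts were female Balb/c nude mice aged 16 weeks. The cells were injected under the skin of the right flank, per the labels and the methods of the study. Its results section names the mammary pad as the site. Per the labels, tumors were taken at the end of 30 days, while the methods and figures of the study give a shorter time. The labels write of each tumor as divided into 4 equal pieces that were homogenized separately, and 3 of the KO pieces are in the series. If each condition gave 1 tumor, the spread between pieces holds no difference between mice, and p-values measure the spread between pieces only.

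Schwann cells are the glia of peripheral nerves. Sox10 is the transcription factor that Schwann cells need at every stage, and together with Egr2 it drives the genes of the myelin sheath, among them Pmp22, Mbp and Prx. Neuregulin on axons, read by Erbb2 and Erbb3, keeps Schwann cells alive and sets how much myelin they make, and Ngfr, the low-affinity neurotrophin receptor p75, marks immature Schwann cells and those of injured nerves. None of the 8 genes is exclusive to this lineage. Sox10 is also made by melanocytes, oligodendrocytes and gland epithelium, S100b by adipocytes and astrocytes, Ngfr by follicular dendritic cells, and a longer form of Mbp by many blood and immune cells.

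To show the DNA in front of genes that differed and of one that did not, 3 upstream windows are given. RefSeq (GRCm38.p6) held windows for 5 of the 8 genes, Pmp22, Prx, Ngfr, S100b and Gfap, and no window was used for Sox10, Mbp and Cdh19. Each line is the 250 bases before the annotated start, 5′ to 3′ on the gene's strand, here the plus strand for all 3, and overlaps no annotated exon. The first is the most upstream of 4 Pmp22 windows at chr11:63128732-63128981, the second is Prx at chr7:27499074-27499323 and the third is S100b at chr10:76253586-76253835. Capitals mark GGAATG, the core of the TEAD recognition sequence, read here on the reverse strand.
Pmp22: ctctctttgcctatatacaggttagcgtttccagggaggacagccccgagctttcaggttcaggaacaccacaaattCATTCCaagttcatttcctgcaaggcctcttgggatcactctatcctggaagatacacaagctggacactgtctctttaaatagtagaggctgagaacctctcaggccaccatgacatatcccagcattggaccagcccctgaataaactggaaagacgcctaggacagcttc
Prx: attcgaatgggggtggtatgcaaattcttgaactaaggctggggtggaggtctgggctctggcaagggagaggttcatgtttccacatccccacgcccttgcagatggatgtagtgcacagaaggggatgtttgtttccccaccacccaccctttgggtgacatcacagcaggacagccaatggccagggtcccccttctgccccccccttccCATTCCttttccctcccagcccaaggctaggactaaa
S100b: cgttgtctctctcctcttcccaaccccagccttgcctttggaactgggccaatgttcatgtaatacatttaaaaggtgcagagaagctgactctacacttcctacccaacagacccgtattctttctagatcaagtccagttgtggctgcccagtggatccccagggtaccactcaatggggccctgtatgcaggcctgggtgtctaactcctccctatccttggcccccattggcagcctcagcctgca
The windows of the 5 genes were searched on both strands for GGAATG, for the SOX core sequences ACAAT and ACAAAG, which share 4 letters and were counted separately, and for the EGR sequence GCGNGGGCG. GGAATG was found once in the first Pmp22 window and once in the Prx window, and 12.6% of 32817 promoter windows of this length hold it. The other sequences had no match in any window of the 5 genes, against 27.7% of all windows for ACAAT, 16.5% for the longer SOX core and 4.7% for the EGR sequence. A match is only a match of letters.

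The libraries held 24088309 to 28326568 counts. Levels are given in CPM, a count scaled to the size of its library, with TMM factors that correct for composition, and 3 counts, the limit that a count of 0 allows, correspond to 0.0989 to 0.148 CPM, for counting error only. Differences are log2 fold changes of KO minus KO + NM1, so a negative value means a lower level in KO, and were fitted with edgeR's quasi-likelihood test over 16887 genes with enough counts. A gene was called when its Benjamini-Hochberg adjusted p was under 0.05 and it differed at least 2-fold. Myo1c, whose gene encodes NM1 and other myosin 1c isoforms, was at 302 CPM ± 12.1 (SD, n = 3) in KO and 407.8 CPM ± 23.0 (SD, n = 4) in KO + NM1, a log2 difference of -0.43 (SE 0.13, edgeR adjusted p = 0.0311) that does not reach 2-fold. Counts per gene do not separate the tagged NM1 from other Myo1c transcripts. KO + NM1 piece 01 stood apart from the other 3 pieces (r of log2 CPM across genes 0.855 to 0.861, against 0.977 to 0.986 among the others), so values without it are given where leaving it out changed a call or a direction, or moved a called value by over 1.5 times. The mitochondrial share of counts was 1.81 to 2.14% in KO and 5.11 to 18.5% in KO + NM1, and its part in the results was not tested.

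Of the 8 genes, 4 were lower in KO (Sox10, S100b, Mbp and Pmp22), none was higher and 4 were not called (Prx, Ngfr, Cdh19 and Gfap). Across all genes tested 37.3% were called, 17.1% as higher and 20.3% as lower in KO, so a call by itself sets no gene apart in these tumors. The median log2 difference of the 8 genes was -1.21, beside -0.0017 for all genes tested. By adjusted p alone the count was the same, 4 lower and none higher, where 24.5% of all genes tested were lower and 25.7% higher. The groups did not overlap in 3 of the 8, always with KO below, and in 57% of all genes tested, 26.4% with KO below. Sox10 and S100b passed the filter on low counts only through the KO + NM1 pieces, where they are high. Without KO + NM1 piece 01 the counts became 5 lower and 1 higher, and without that piece and KO piece 02 together they became 4 lower and 1 higher. Calls over all genes rose as well in these settings, from 37.3% to 46.8% and 47.9%. In these whole pieces, fewer cells of a type and less RNA per cell cannot be told apart, and neither can the RNA of injected and of host cells.

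**Figure D1:**
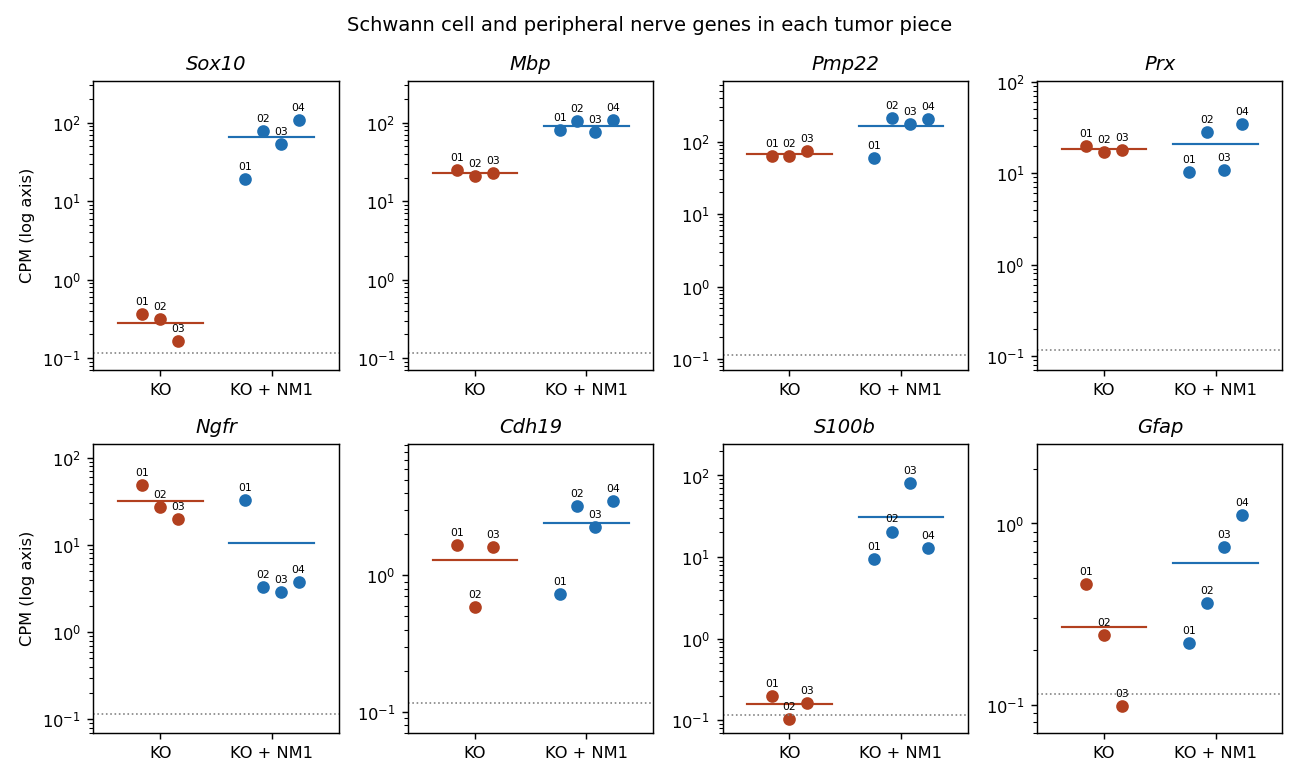
Level of each of the 8 genes in every tumor piece, in CPM on a log axis, with KO pieces in red and KO + NM1 pieces in blue, piece numbers above the points and the group mean as a bar; the dotted line is the mean over libraries of the level that 3 counts represent, and a value below a library's own level would be an open triangle. Sox10, Mbp and S100b do not overlap between groups, Pmp22 overlaps through KO + NM1 piece 01, and Ngfr of that piece lies among the KO pieces.

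Sox10 (ENSMUSG00000033006, GRCm38 chr15:79154908-79165240, minus strand) was almost absent from the KO pieces. Its level was 0.366, 0.312 and 0.165 CPM in KO pieces 01 to 03, from 11, 9 and 5 counts. It was 19.1, 78.8, 53.7 and 110 CPM in KO + NM1 pieces 01 to 04, from 525, 1939, 1089 and 2684 counts. Every KO + NM1 piece lay far above every KO piece, and within KO + NM1 piece 01 was the lowest and piece 04 the highest. The group means were 0.281 CPM ± 0.104 (SD, n = 3) and 65.4 CPM ± 38.6 (SD, n = 4), with a log2 difference of -7.84 (SE 0.64, edgeR adjusted p = 0.000606). The exact two-sided permutation test over the 7 libraries gave p = 0.0286, the smallest it can give.

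Markers of other cells that make Sox10 are given beside it, and their part in its difference was not tested. The summed level of melanocyte markers was 17.6 to 40.9 CPM in KO and 15.4 to 30.5 CPM in KO + NM1, and none of the 4 of 6 tested was called. Mitf alone gave 12.5 to 28.2 CPM of that sum in KO + NM1. Pmel, Tyr, Tyrp1 and Dct were highest in KO piece 02 (6.14, 1.11, 3.89 and 9.06 CPM), and Mlana in KO + NM1 piece 01 (0.910 CPM). Of 8 markers of central nervous system glia, Opalin, a membrane protein of oligodendrocytes, was at 0 in all libraries and Mobp, a myelin protein of the brain, was at most 0.205 CPM. Aldh1l1, a folate enzyme of astrocytes and liver, was lower in KO like Sox10 (log2 -4.10, edgeR adjusted p = 0.00226). It was at 5.66, 7.64 and 6.86 CPM in KO and 27.2, 155, 163 and 117.5 CPM in KO + NM1, highest in piece 03. Aqp4 was at 2.06, 0.208 and 0.495 CPM in KO and at 1.06, 0, 0 and 0 CPM in KO + NM1, and was not called. Mog was at most 0.297 CPM in KO and 0.0821 CPM in KO + NM1. Slc1a2 was at most 0.429 CPM except in KO + NM1 piece 01 (4.44 CPM), and Hapln2 was at most 0.0493 CPM. Gja1, a gap junction protein of astrocytes and many other cells, was at 176 to 229 CPM in KO and 63.7 to 269 CPM in KO + NM1 and was not called. Basal and myoepithelial markers summed to 103 to 734 CPM in KO + NM1 and to 31.2, 769 and 5.80 CPM in KO pieces 01 to 03, so KO piece 02 had the highest sum of the 7 libraries with Sox10 at 0.312 CPM. That sum came from the keratins Krt5, Krt14 and Krt17 (249, 284 and 213 CPM). Of the 6 genes of the list, Oxtr and Cnn1 were lower in KO, and the other 4, those keratins and Trp63, were not called. Oxtr, the oxytocin receptor, was at most 0.555 CPM in KO and at 24.6 to 189 CPM in KO + NM1 (log2 -8.70, edgeR adjusted p = 0.00167). Cnn1, a smooth muscle calponin, was at most 1.04 CPM in KO and at 14.1 to 59.6 CPM in KO + NM1, highest in piece 02 (log2 -5.72, edgeR adjusted p = 0.00068). Trp63 was at 0.965, 21.4 and 4.55 CPM in KO and at 4.01 to 20.6 CPM in KO + NM1. The summed level of luminal and general epithelial genes was lower in every KO piece than in any KO + NM1 piece, as for Sox10. Single genes of this sum did not all follow Sox10. Cdh1 was higher in KO piece 02 than in KO + NM1 piece 01, and Krt18 was at 41.5 and 23.5 CPM in KO pieces 02 and 03. Epcam, Krt8, Krt18, Cdh1, Cldn3 and Cldn7, a list chosen after seeing the data, summed to 7.29, 90.1 and 47.2 CPM in KO pieces 01 to 03 and to 298, 1135, 979 and 1390.07 CPM in KO + NM1 pieces 01 to 04, where piece 01 was again the lowest and piece 04 the highest. The 3 genes most similar to Sox10 in their pattern over the 7 libraries, by root mean square difference of centred log2 CPM among 14951 genes, were Mlph (0.238), BC006965 (0.267) and Muc13 (0.341).

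Among the myelin genes, Mbp and Pmp22 were lower in KO and Prx was not called. Mbp, myelin basic protein, which compacts the sheath from its inner side (ENSMUSG00000041607, chr18:82475146-82585637, plus strand), was at 24.9, 20.9 and 23.1 CPM in the KO pieces. The KO + NM1 pieces held 80.3, 104, 75.4 and 110 CPM. The 2 groups were each tight and did not overlap. Means were 23.0 CPM ± 1.97 (SD, n = 3) and 92.5 CPM ± 17.2 (SD, n = 4), with a log2 difference of -2.01 (SE 0.17, edgeR adjusted p = 0.000495). Unlike Sox10, Mbp was well detected in KO, and piece 01 did not stand apart for it. The 3 genes nearest to Mbp in pattern were Ramp1 (0.143), Cox4i2 (0.153) and Ldb2 (0.169). Markers of endothelium, which were also lower in KO, summed to 195 to 221 CPM in KO and 1005 to 1342 CPM in KO + NM1, and their part in the result was not tested.

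Pmp22, a membrane protein of compact myelin (ENSMUSG00000018217, chr11:63128982-63159547, plus strand), was at 63.8, 63.4 and 75.1 CPM in the KO pieces. In KO + NM1 it was at 59.7 CPM in piece 01 and at 213, 176 and 202 CPM in pieces 02 to 04. Piece 01 therefore lay below all KO pieces, while the other 3 lay above them. The log2 difference of -1.27 (SE 0.40, edgeR adjusted p = 0.0393) was only just past the threshold, and the exact permutation test gave p = 0.143. Its call was lost in 9 of the 19 alternative settings, with adjusted p between 0.0558 and 0.314. Tmem43 (0.110), Cd302 (0.113) and Fcgrt (0.125) had the most similar patterns. Pmp22 is also made by fibroblasts, and the summed level of 7 fibroblast markers was 2776 CPM in KO + NM1 piece 01 and 7304 to 12478 CPM in pieces 02 to 04. In KO the same sum was 7086 to 12806 CPM. Of these markers Dcn, Pdgfra, Pdgfrb and Prrx1 were called lower in KO, and Col1a1, Col1a2 and Col3a1 were not called. The part of fibroblasts in the result was not tested.

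Prx, periaxin, a scaffold protein of the myelinating Schwann cell (ENSMUSG00000053198, chr7:27499324-27520214, plus strand), was at 20.0, 16.9 and 17.7 CPM in KO and at 10.4, 28.1, 10.9 and 34.8 CPM in KO + NM1. The KO + NM1 pieces lay on both sides of the KO pieces, with 01 and 03 below and 02 and 04 above. The log2 difference was -0.21 (SE 0.46, edgeR adjusted p = 0.733), and its sign turned to 0.13 without KO + NM1 piece 04. The antisense gene Gm15541 overlaps exons of Prx, and the strand setting of the counting is not stated, so reads of the pair may not be separable. The gene with the nearest pattern was Drp2 (0.224), which encodes a dystrophin-related protein that binds periaxin, followed by Tgfb1i1 (0.245) and Mmp14 (0.285).

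The receptor Ngfr (ENSMUSG00000000120, chr11:95568818-95587735, minus strand) pointed the other way from Sox10. It was at 48.5, 27.4 and 19.7 CPM in KO. In KO + NM1 it was at 32.3 CPM in piece 01 and at 3.25, 2.91 and 3.78 CPM in pieces 02 to 04. Piece 01 lay inside the range of KO, and the other 3 lay far below it. With all libraries the log2 difference was 1.59 (SE 0.94, edgeR adjusted p = 0.198), not called. Without piece 01 it was 3.14 (adjusted p = 0.000219), higher in KO. Piece 01 also carried the markers of lymphoid tissue: 6 B cell markers summed to 4329 CPM there against 3.04 to 17.4 CPM in the other KO + NM1 pieces, and Cr2, a complement receptor of B cells and follicular dendritic cells, was at 560 CPM against 0.246 to 1.28 CPM. In KO, where Ngfr was as high as in piece 01, the B cell sum was 9.15 to 43.5 CPM and Cr2 was at 0.233 to 3.82 CPM. The part of these markers in the level of Ngfr was not tested. Adgrg5 (0.287), Treml4 (0.291) and Fut4 (0.300) had the nearest patterns to Ngfr.

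Cdh19, a cadherin of Schwann cell precursors and their descendants (ENSMUSG00000047216, chr1:110888326-110977584, minus strand), was low in all libraries. Its level was 1.66, 0.590 and 1.62 CPM in KO and 0.728, 3.21, 2.27 and 3.53 CPM in KO + NM1. Again piece 01 was the low one of its group and lay within the range of KO. The log2 difference was -0.91 (SE 0.61, edgeR adjusted p = 0.259) with all pieces and -1.34 (adjusted p = 0.0247) without KO + NM1 piece 01. Adamts2 (0.216), Angptl2 (0.276) and Nid2 (0.287) came nearest to it in pattern.

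S100b, a calcium-binding protein of glia and adipocytes (ENSMUSG00000033208, chr10:76253853-76261159, plus strand), resembled Sox10 in the size of its difference but not in its order over the pieces. The KO pieces held 0.200, 0.104 and 0.165 CPM, from 6, 3 and 5 counts. The KO + NM1 pieces held 9.51, 20.6, 79.8 and 13.1 CPM. Piece 03 was the highest for S100b, whereas piece 04 was the highest for Sox10. The log2 difference was -7.57 (SE 0.92, edgeR adjusted p = 0.00166). Since KO held only 14 counts in all, the ratio of summed counts was 178, with a 95% Clopper-Pearson interval of 106 to 326 that covers counting error only. The nearest patterns were those of Ncan (0.212), Plin5 (0.321), a lipid droplet protein, and Gm9899 (0.473). The 6 white adipocyte markers were all lower in KO, with a summed level of 8.89 to 104 CPM in KO and of 1739, 15476, 13610 and 10956 CPM in KO + NM1 pieces 01 to 04. Their highest piece, 02, was not the highest for S100b, and their part in its difference was not tested.

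Gfap, the intermediate filament of astrocytes and non-myelinating Schwann cells (ENSMUSG00000020932, chr11:102887336-102900912, minus strand), was near the limit of detection. It was at 0.466, 0.243 and 0.0989 CPM in KO and at 0.219, 0.366, 0.740 and 1.11 CPM in KO + NM1, with overlapping groups. Its log2 difference of -1.15 (SE 0.72, edgeR adjusted p = 0.224) was not called, and it was -1.91 without KO piece 01 and -0.88 without KO piece 03. Ptprf (0.310), Spsb4 (0.403) and Cpa3 (0.410) were nearest to it.

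On the TPM scale, which divides counts by exon length and sets every library to the same total so that genes can be ordered, the mean levels in KO + NM1 were 173 for Pmp22, 55.4 for Sox10, 45.4 for S100b, 28.6 for Mbp, 10.0 for Prx, 9.10 for Ngfr, 1.44 for Cdh19 and 0.368 for Gfap. The ranges over the pieces overlapped for every neighbouring pair in this order. In KO the order was Pmp22 (99.3), Ngfr (32.3), Prx (11.3), Mbp (9.41), Cdh19 (1.05), S100b (0.366), Sox10 (0.321) and Gfap (0.223). There the ranges overlapped only between S100b and Sox10 and between Sox10 and Gfap, so the KO pieces held Pmp22, Ngfr, Prx and Mbp at levels well above those of Sox10 and S100b.

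A further 6 lists of other nerve genes placed these 8 among their partners. Their counts stand beside shares of 17.1% higher and 20.3% lower in KO over all genes tested, and their medians beside -0.0017. Of 10 Schwann cell transcription factors, 9 were tested, 2 were higher in KO and 1 was lower, with a median log2 difference of -0.083. Pax3, a factor of neural crest, immature Schwann cells and muscle precursors, was at 15.9, 16.1 and 14.9 CPM in the KO pieces and at no more than 0.0821 CPM in any KO + NM1 piece, from 3 counts in all. The ratio of summed counts was 503, with a 95% Clopper-Pearson interval of 172 to 2440 that covers counting error only. The edgeR adjusted p was 0.000375, and Pax3 passed the filter on low counts only through the KO pieces. The 6 skeletal muscle markers, a tissue that also uses Pax3, summed to 1935, 17502 and 13675 CPM in KO and to 5.77 to 24.7 CPM in KO + NM1. The part of muscle in the difference of Pax3 was not tested. Pou3f1, the factor of promyelinating Schwann cells, was at 2.66, 7.98 and 1.85 CPM in KO and at 0.219 to 1.19 CPM in KO + NM1, and was called higher in KO (log2 2.89, edgeR adjusted p = 0.0182). Its call rested on KO piece 02, without which the difference was 1.89 (adjusted p = 0.0823), and was also lost without KO + NM1 piece 02 (adjusted p = 0.0511). Foxd3, a neural crest factor, was lower from 9 counts in KO (log2 -2.81, edgeR adjusted p = 0.0393). It was called in 11 of the 15 alternative settings that tested it. The call was lost without KO piece 01 (adjusted p = 0.116) or KO piece 03 (adjusted p = 0.115). It was also lost with glmTreat (adjusted p = 0.11) and with every gene of at least 1 count (adjusted p = 0.061). Egr2, the partner of Sox10 on myelin genes, was at 7.36 to 13.0 CPM in KO and 5.67 to 15.4 CPM in KO + NM1 and was not called. Jun, the factor of repair Schwann cells, and Zeb2, which myelination needs, were not called either, with log2 differences of 0.41 and -0.39. Egr2 was outside the rule for naming genes and was chosen after its values were seen.

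**Figure D2:**
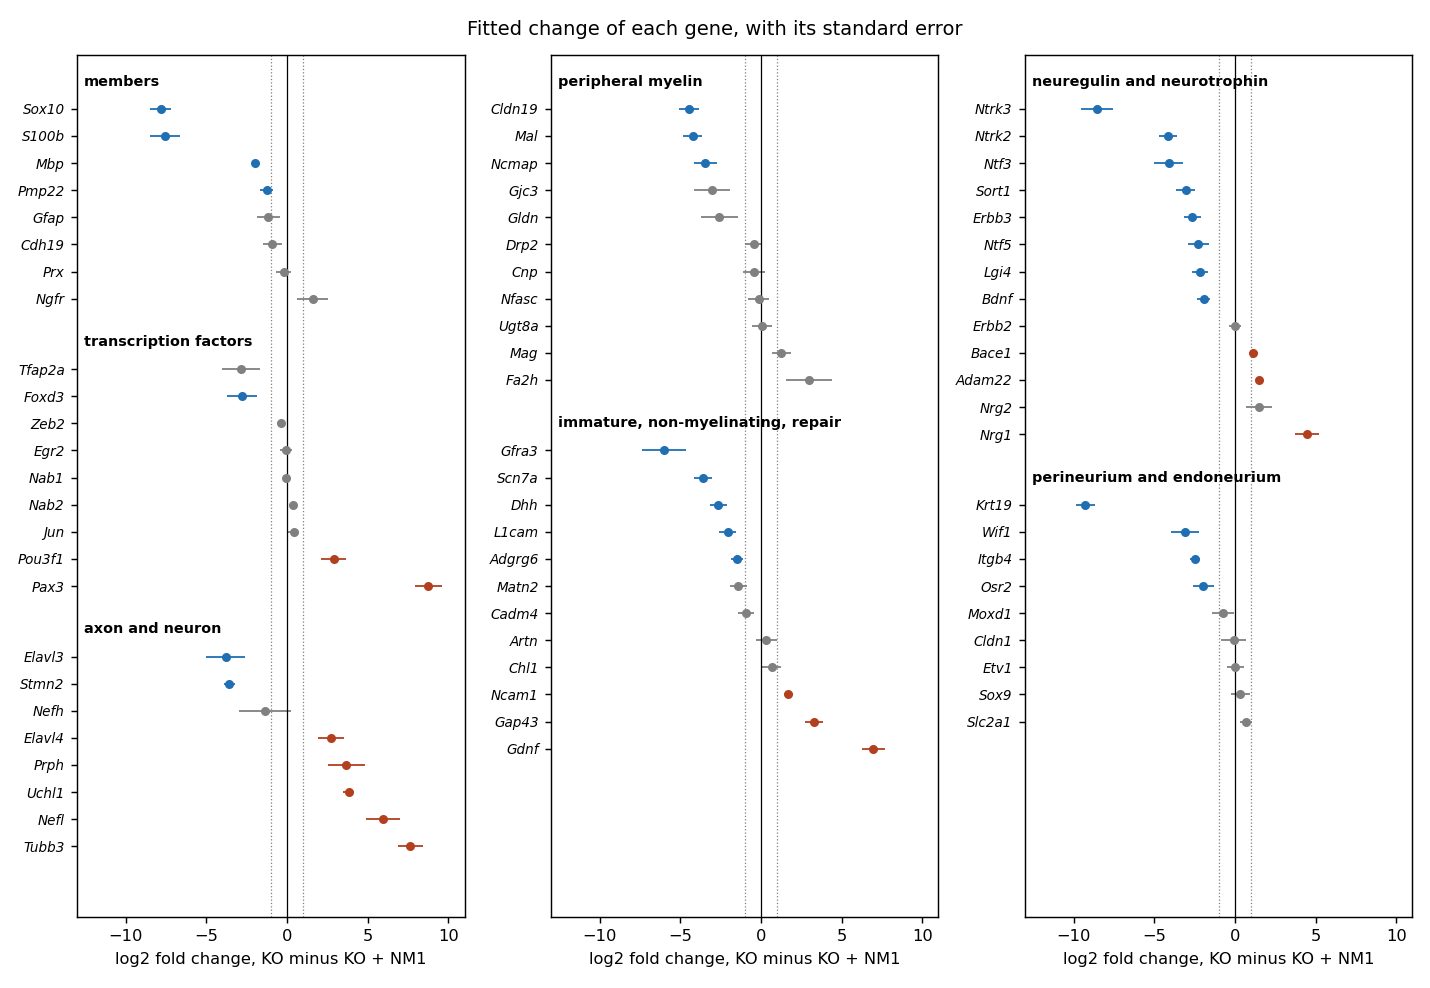
Fitted log2 fold change of KO minus KO + NM1 for the 8 genes and the genes of the nerve lists that are reported here, with its standard error as a bar; red points were called higher in KO, blue points lower and grey points not called, and dotted lines mark a 2-fold difference. Calls of the myelin list lie on the left only, and those of the neuregulin and neurotrophin list lie on both sides.

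In the peripheral myelin list of 16 genes, 13 were tested, 5 were lower in KO and none was higher, with a median log2 difference of -2.02. Mal, a proteolipid of sheath and epithelium, was at 0.133, 0.590 and 0.231 CPM in KO and at 2.59, 7.35, 6.02 and 8.33 CPM in KO + NM1. The 2 groups did not overlap (log2 -4.24, SE 0.60, edgeR adjusted p = 0.00259). Ncmap, a small membrane protein of the myelin sheath, and Cldn19, a tight junction protein of Schwann cells, were also lower, were at most 3.98 CPM in any library and are named after their values were seen. Cnp, an enzyme of non-compact myelin, was not called. Its KO levels of 66.7 to 70.7 CPM lay above KO + NM1 pieces 02 to 04 (36.9 to 50.04 CPM) and below piece 01 (238 CPM), and its log2 difference turned from -0.43 to 0.52 without that piece. Without piece 01 the list had 6 lower and 1 higher, with 46.8% of all genes called.

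The immature, non-myelinating and repair list of 15 genes was mixed: 12 were tested, 3 were higher in KO, 5 were lower, and the median log2 difference was -1.16. Higher were Gdnf, a survival factor for neurons that denervated Schwann cells release (40.5, 23.9 and 26.2 CPM in KO, 0.0493 to 0.616 CPM in KO + NM1), the growth-associated protein Gap43 (log2 3.27, edgeR adjusted p = 0.00365) and the adhesion molecule Ncam1 (log2 1.68, adjusted p = 0.00269). Gdnf differed by 6.97 on the log2 scale (adjusted p = 0.000749). Lower were Scn7a, a sodium channel of non-myelinating Schwann cells, at 4.33, 8.71 and 10.7 CPM in KO and 26.2, 109, 110 and 140 CPM in KO + NM1 (log2 -3.60, edgeR adjusted p = 0.00373), the adhesion molecule L1cam (log2 -2.07, adjusted p = 0.0222, and 0.0715 and 0.0666 without KO pieces 01 and 03) and Adgrg6, a receptor that starts myelination (log2 -1.48, adjusted p = 0.0141). L1cam was at 3.26 to 6.49 CPM in KO, 42.2 CPM in KO + NM1 piece 01 and 10.6 to 13.3 CPM in the other KO + NM1 pieces. Its log2 difference lay between -2.49 and -1.29 over the alternative settings. Matn2, a matrix protein, was at 9.83 CPM in KO + NM1 piece 01, below the KO range of 10.6 to 18.6 CPM, and at 44.5 to 50.1 CPM in the other 3 pieces, and was not called (log2 -1.40, adjusted p = 0.0682). Without piece 01 it was called lower (-1.85, adjusted p = 0.000194). The other 2 lower genes were Gfra3, a receptor for artemin, and Dhh, the hedgehog ligand of Schwann cells, each at most 4.47 CPM and named after their values were seen. Leaving out piece 01 gave 7 lower and 3 higher, again with 46.8% of all genes called.

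Ligands and receptors that Schwann cells and axons use divided between the groups. All 15 genes of the neuregulin and neurotrophin list were tested, 5 were higher in KO and 8 were lower, with a median log2 difference of -1.93. The neurotrophins Bdnf, Ntf3 and Ntf5 were lower in KO, by -1.93, -4.10 and -2.27 on the log2 scale (edgeR adjusted p = 0.00877, 0.0135 and 0.0292). The call of Ntf5 was lost in 5 of 19 settings, 4 of which left out 1 library, and that of Ntf3 without KO piece 03 (adjusted p = 0.0561). None of these 3 exceeded 8.37 CPM in any library. Ntrk2, the receptor of BDNF, was at 14.4, 9.02 and 9.001 CPM in KO and at 42.5, 249, 240 and 227 CPM in KO + NM1 (log2 -4.13, SE 0.56, edgeR adjusted p = 0.00254). Ntrk3, the receptor of neurotrophin 3, had 6 counts in the 3 KO libraries together and was at 6.34, 21.4, 57.7 and 21.7 CPM in KO + NM1. Its ratio of summed counts was 369, with a 95% Clopper-Pearson interval of 169 to 1010 that covers counting error only (edgeR adjusted p = 0.000995). Ntrk3 passed the filter on low counts only through the KO + NM1 pieces. Piece 03 was the highest for Ntrk3, as for S100b. Bdnf, Ntf3, Ntf5 and Ntrk3 were outside the rule for naming genes and were chosen after their values were seen.

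**Figure D3:**
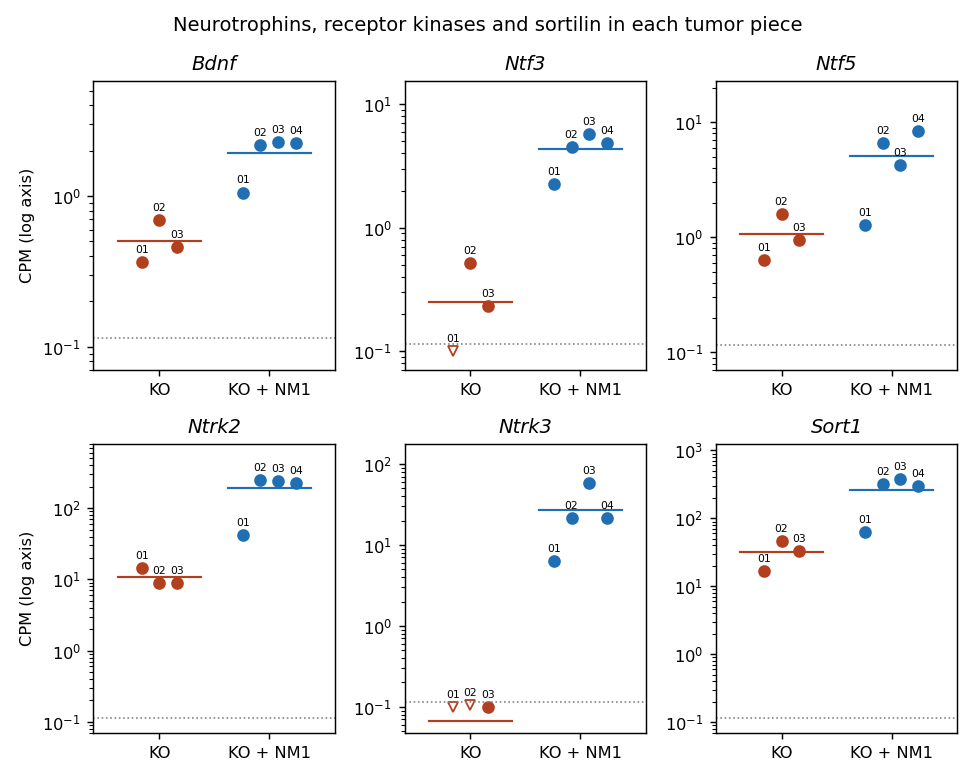
Level of the neurotrophins Bdnf, Ntf3 and Ntf5, the receptor kinases Ntrk2 and Ntrk3 and the sorting receptor Sort1 in every tumor piece, in CPM on a log axis; symbols, bars and the dotted line are as in the plot of the 8 genes, and open triangles stand at the level of 3 counts for a piece with fewer. All KO pieces lie below all KO + NM1 pieces except for Ntf5, where KO + NM1 piece 01 lies within the range of KO.

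Sort1, sortilin, the partner of Ngfr for the uncleaved neurotrophins, was lower in KO (17.1, 46.3 and 33.0 CPM against 63.8, 324, 380 and 296 CPM, log2 -3.05, edgeR adjusted p = 0.00847). In the neuregulin arm, Erbb3, the receptor that binds neuregulin, was at 8.05, 17.5 and 7.48 CPM in KO and at 23.6, 63.9, 76.4 and 110 CPM in KO + NM1 (log2 -2.63, SE 0.53, edgeR adjusted p = 0.00866). Its order over the KO + NM1 pieces had 01 lowest and 04 highest, as for Sox10. Erbb2, its kinase partner, was at 53.8 to 59.7 CPM in KO and 23.5 to 79.6 CPM in KO + NM1, and its log2 difference of 0.0045 changed sign with the scaling. Bace1, the protease that cleaves neuregulin, was higher in KO (72.8 CPM ± 6.95, SD, n = 3, against 32.9 CPM ± 9.40, SD, n = 4, log2 1.15, edgeR adjusted p = 0.00845). Its fold lay near the 2-fold limit, and its call was lost in 6 of 19 settings, among them without KO + NM1 piece 01 (0.84), KO piece 02 (0.99) or KO piece 03 (0.99) and with upper-quartile scaling (0.98). Nrg1 itself was at 4.65 to 5.23 CPM in KO and at most 0.546 CPM in KO + NM1 (log2 4.47, edgeR adjusted p = 0.00357, and log2 5.42 without piece 01), and was named after its values were seen.

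**Figure D4:**
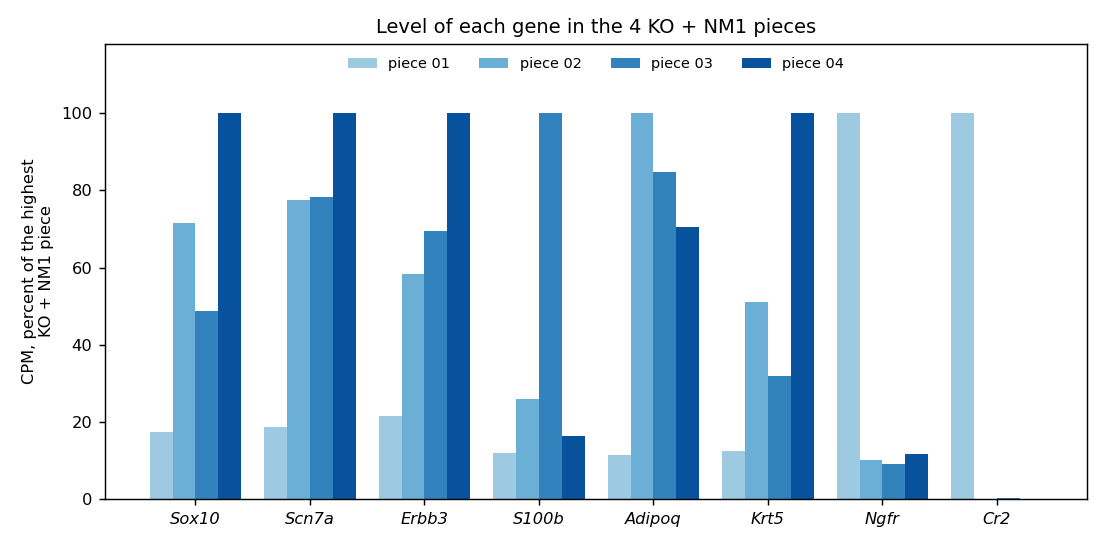
Level of 8 genes in the 4 KO + NM1 pieces, each as a percent of its highest piece, on an axis that starts at 0. Sox10, Scn7a, Erbb3 and Krt5 are highest in piece 04, S100b in piece 03, Adipoq in piece 02, and Ngfr and Cr2 in piece 01.

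The KO + NM1 pieces did not rank in the same order for all of these genes. Relative to its highest piece, Sox10 was at 17.4, 71.5, 48.8 and 100% in pieces 01 to 04, and Erbb3 was at 21.5, 58.3, 69.6 and 100%. Krt5, a keratin of basal epithelium, was at 12.3, 51.1, 32.0 and 100%. S100b was at 11.9, 25.8, 100 and 16.4%, and Adipoq, an adipocyte hormone, at 11.3, 100, 84.8 and 70.4%. With 4 pieces these orders are a description, and no test was made.

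Of 17 axon and neuron genes, 9 were too low to be tested. These were Th, Dbh, Calca, Tac1, Scn9a and Scn10a, which mark sensory and sympathetic neurons, and the general neuronal genes Snap25, Nefm and Rbfox3. Of the 8 tested, 5 were higher in KO and 2 were lower, with a median log2 difference of 3.20. Tubb3, the neuronal beta-tubulin, was at 36.3, 35.6 and 37.4 CPM in KO and at 0.473, 0.0812, 0 and 0.123 CPM in KO + NM1 (log2 7.64, SE 0.77, edgeR adjusted p = 0.000775, and log2 8.77 without piece 01). Uchl1, an abundant deubiquitinase of neurons, was at 53.3, 23.9 and 29.1 CPM in KO against 1.68 to 3.20 CPM (log2 3.82, edgeR adjusted p = 0.000528). Prph, the intermediate filament of peripheral axons, was at 14.01 to 15.2 CPM in KO, 3.90 CPM in KO + NM1 piece 01 and at most 0.452 CPM in the other pieces (log2 3.67, edgeR adjusted p = 0.0375), and its call was lost in 8 of 18 settings, while without piece 01 the difference was 5.86 (adjusted p = 4.78e-05). In the other direction, Stmn2, a regulator of axonal microtubules, was at 0.725 to 1.28 CPM in KO and 8.91 to 15.6 CPM in KO + NM1 (log2 -3.58, edgeR adjusted p = 0.000691), and Elavl3, a neuronal RNA-binding protein, was lower from 5 counts in KO (adjusted p = 0.0304), a call lost without any 1 of the KO pieces (adjusted p = 0.0669 to 0.0792). RNA of axons is made in cell bodies outside the tissue, and which cells gave these counts was not tested.

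**Figure D5:**
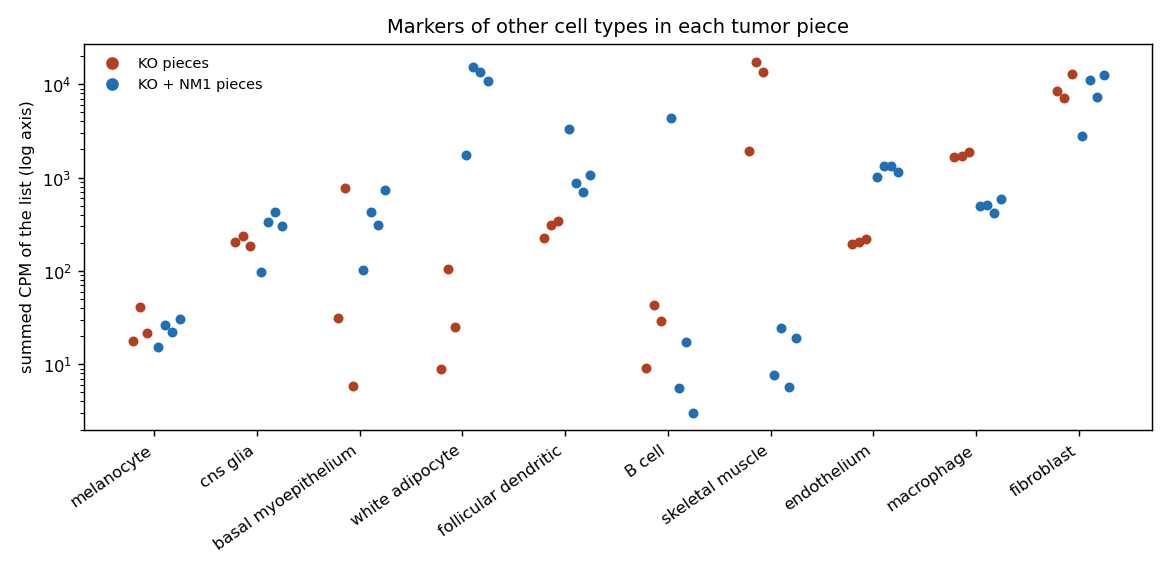
Summed level of 10 marker lists of other cell types in every tumor piece, in CPM on a log axis, with KO pieces in red and KO + NM1 pieces in blue, in piece order within each group. Adipocyte and endothelial sums are higher in all KO + NM1 pieces, muscle and macrophage sums in all KO pieces, and the B cell sum in KO + NM1 piece 01 alone.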

How the data were processed

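RNA-seq of 7 tumor pieces (3 KO, 4 KO + NM1) was used. Per the labels, libraries were made with the NEBNext Ultra II RNA kit and sequenced on an Illumina NextSeq. The deposited values are raw counts of reads per Ensembl gene. To make them, the authors used Trimmomatic 0.36 for trimming, HISAT2 2.0.4 for alignment to GRCm38, SAMtools 0.1.19 for sorting and HTSeq-count for counting. The annotation release and the strand setting are not given in the sources used here. GENCODE M21 symbols matched 46091 of 46603 genes.

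Counts were filtered with filterByExpr (minimum 10), scaled by TMM and tested with edgeR 4.0.16 in R 4.3.3 (quasi-likelihood, no covariates, KO minus KO + NM1). P-values were adjusted by the Benjamini-Hochberg method over 16887 genes, and calls needed an adjusted p under 0.05 and an absolute log2 fold change of at least 1, the thresholds of the study, whose methods name no test. Listed genes with few counts in the lower group, such as Pax3, Ntrk3, Tubb3, Gfra3 and Cldn19, passed the filter through the group where they are high. The biological coefficient of variation was 46.7%. SE came from the fitted information and moderated dispersion. Single values were also tested by exact permutation over 35 splits (two-sided). The test was checked on simulated counts. Within groups, pairs of libraries differed by more than sampling noise (chi-square per degree of freedom 35.2 to 687), and none was counted as a repeat library.

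The 8 genes and the lists (transcription factors, myelin, immature and repair, neuregulin and neurotrophin, axon and neuron, perineurium and endoneurium, and markers of 10 other cell types) were chosen with earlier results of these data known, and the epithelial list after these values were seen. No test was made over a list. Some listed genes that the rule names enter the counts and medians but are not reported here. Named were all 8 genes, in each list every called gene where a direction had 4 or fewer and otherwise the 3 most abundant, up to 2 uncalled genes of at least 20 CPM per nerve list, and the 3 genes of at least 1 CPM nearest in pattern to each of the 8. Alternatives were other scalings (RLE, upper quartile, library size alone, mitochondrial genes left out), other filters, DESeq2 1.42.0, limma 3.58.1 voom with quality weights, a block for the replicate number, glmTreat, adjusted p alone, and each library left out in turn.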

Additional observations from a re-analysis of the deposited data

Results flagged for a closer look

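In 10 of 74 listed genes, 1 piece of the 4 KO + NM1 pieces lay far from the other 3 on the log2 CPM scale by Dixon's ratio, the gap to the nearest piece over the whole range. About 3.7 would pass by chance at 1 in 20, and piece 01 was the distant one in all 10. It was the lowest piece for Pmp22 (ratio 0.850), Scn7a (0.849), Matn2 (0.927), Bdnf (0.955), Ntrk2 (0.948) and Sort1 (0.860). It was the highest piece for Ngfr (0.893), Cnp (0.837), L1cam (0.834) and the neurofilament gene Nefh (0.923). Genes of the 8 whose levels in piece 01 did not stand apart in this way were Sox10, Mbp, Prx, Cdh19, S100b and Gfap.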

How the results depend on the processing

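Sox10, S100b and Mbp were lower in KO in every setting that tested them (log2 -8.35 to -7.28, -8.01 to -6.50 and -2.20 to -1.84). The call of Pmp22 was lost with library size alone (-1.06, adjusted p = 0.0558), with glmTreat (-1.27, adjusted p = 0.314) and when 1 library was left out (-1.47 to -1.13 over the 6 such cases, while without KO + NM1 piece 01 it was -1.67 and called). Ngfr was called higher under limma voom (2.82), without KO + NM1 piece 01 (3.14) and without KO piece 02 and KO + NM1 piece 01 together, a setting chosen after seeing the data (3.24). Cdh19 was called lower under voom (-1.37) and without KO + NM1 piece 01 (-1.34), and Gfap under voom (-1.64). Leaving out 1 library at a time moved Prx over -0.557 to 0.126, Ngfr over 1.05 to 3.14, Cdh19 over -1.34 to -0.686, Cnp over -0.703 to 0.525, Sox9 over -0.106 to 0.803 and Erbb2 over -0.377 to 0.197, so that the signs of Prx (without KO + NM1 piece 04), Cnp (without KO + NM1 piece 01), Sox9 and Erbb2 turned in some cases. Signs also turned for Cnp under voom (0.617) and without both pieces (0.507), and for Sox9 under voom (-0.149) and without both pieces (-0.0590). Erbb2 turned under RLE (-0.103), upper quartile (-0.164), any count (-0.0975), 10 counts in every library (-0.0479), DESeq2 (-0.104), voom (-0.274) and both pieces left out (-0.367). Relative to the main scaling the median of all genes moved by -0.102 under RLE, -0.159 under upper quartile and 0.166 with library size alone. The cause of these changes was not tested.

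Counts over lists moved in some settings. Among the 8 genes, 1 was higher under voom, without KO + NM1 piece 01 and without both pieces, and 2 were lower with 10 counts in every library. Transcription factors had 0 higher with 10 counts in every library, 1 with glmTreat and 1 to 2 with 1 library left out, and lower 0 with any count, 10 counts in every library or glmTreat, 2 with DESeq2, voom or both pieces left out, and 0 to 2 with 1 library left out. Myelin had 1 higher under voom, both pieces left out and in leave-one-out (0 to 1), and 2 lower with 10 counts in every library. Immature and repair genes had 1 higher and 3 lower with 10 counts in every library and 3 lower with glmTreat. Neuregulin and neurotrophin genes had 3 higher and 5 lower with glmTreat, and 3 to 5 higher in leave-one-out. Axon and neuron genes had 1 higher and 1 lower with 10 counts in every library, 3 and 1 with glmTreat, and 3 to 6 and 1 to 2 in leave-one-out. Perineurium genes had 1 higher with both pieces left out, 2 lower with glmTreat and 2 to 4 lower in leave-one-out. Over all genes, glmTreat called 1707 higher and 2074 lower, against 2882 and 3424.

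Replicate numbers were not taken as pairs, since same-numbered pieces had correlations of their deviations of 0.0802, 0.102 and -0.0165. With the replicate number as a block, 2437 genes were higher and 2493 lower, Pmp22 was not called (-0.970, adjusted p = 0.148) and Prx had a value of 0.312. Under the block the immature and repair list had 3 lower, the axon list 3 higher and 1 lower, and the perineurium list 2 lower.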

Other observations

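Perineurium and endoneurium, the wrappings of a nerve, had a list of 10 genes, of which 9 were tested, 4 were lower in KO and none was higher, with a median log2 difference of -0.76. Over all genes tested, 20.3% were lower and 17.1% higher in KO. Krt19, which the list holds for perineurial cells but which is also a keratin of simple epithelium, was at 0.566, 0.625 and 0.330 CPM in KO and at 91.4, 384, 331 and 452 CPM in KO + NM1 (log2 -9.27, SE 0.56, edgeR adjusted p = 0.000375). Its order over the KO + NM1 pieces, with 01 lowest and 04 highest, was that of Epcam at 88.0, 323, 255 and 370 CPM. Itgb4, the laminin receptor subunit of perineurial and epithelial cells, was at 8.24 to 14.5 CPM in KO and 44.6 to 86.6 CPM in KO + NM1 (log2 -2.50, edgeR adjusted p = 0.0014). Wif1, a Wnt inhibitor, and Osr2, a transcription factor of connective tissue, were lower by -3.08 (adjusted p = 0.0336) and -1.96 (adjusted p = 0.0453). The call of Wif1 was lost in 6 of 18 settings and that of Osr2 in 9 of 19, with adjusted p of up to 0.103 and 0.168. The glucose transporter gene Slc2a1 (0.68, adjusted p = 0.182) and the transcription factor Sox9 (0.34, adjusted p = 0.664) were not called.

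Of the marker lists of other cells, all 6 skeletal muscle genes and 5 of 6 macrophage genes were higher in KO, and 1 macrophage gene, Cd14, was lower. All 6 adipocyte and all 6 endothelial genes were lower in KO, as were 4 of 7 fibroblast genes, 2 of 6 basal and myoepithelial genes (Oxtr and Cnn1), 1 of 4 tested follicular dendritic genes (Mfge8) and 1 of 3 tested central glia genes (Aldh1l1). None of the 6 B cell genes was called. The summed follicular dendritic level was 3289 CPM in KO + NM1 piece 01, 697 to 1076 CPM in the other 3 pieces and 225 to 343 CPM in KO. Cr2 gave 560 CPM of it in piece 01, at most 1.28 CPM in the other 3 pieces and at most 3.82 CPM in KO. The summed central glia level was 184 to 238 CPM in KO and 96.4 to 432 CPM in KO + NM1. Gja1 alone gave 176 to 229 CPM of it in KO and 63.7 to 269 CPM in KO + NM1. The summed macrophage level was 1672 to 1890 CPM in KO and 415 to 594 CPM in KO + NM1.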
